A study of Mus musculus with 75 samples.

Results

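Scn2a, Lrtm2, Slc5a1, Dct, Nt5e and Lrtm1 are 6 mouse genes, of 55536 in the deposited table, that were chosen by their measured levels: earlier results of these data had them near 0 in vehicle liver or strongly shifted in high-risk liver. They were found by gene symbol, and each symbol matched 1 gene. Liver RNA came from C57Bl/6 mice, labelled as male, whose dams were given tributyltin (TBT), an organotin biocide, in their water up to weaning (3.07 µM, a daily dose of 0.5 mg/kg), and from mice labelled as vehicle. The 3-week groups were 7 vehicle and 8 TBT samples. The 5-month groups were 8 vehicle samples, 16 TBT samples labelled low-risk and 10 labelled high-risk. The 10-month groups were 6 vehicle samples, 5 low-risk TBT samples, 7 TBT tumors and 5 samples of uninvolved liver of high-risk TBT mice, beside 1 vehicle library labelled as a tumor, which entered no comparison. How mice were put at low or high risk is not in the labels, nor is it said that replicates were separate animals, so p-values measure the spread between these samples. Values are counts per M counts (CPM) and standard deviations (SD) are over samples. CPM divide by the library total alone. Fitted log2 fold changes also use scaling factors between libraries (TMM), so they can differ from the ratio of CPM.

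Scn2a encodes the pore-forming subunit of a voltage-gated sodium channel that carries action potentials in brain neurons. Lrtm2 and Lrtm1 encode related single-pass membrane proteins with leucine-rich repeats, named with the neural leucine-rich repeat families. Slc5a1 encodes the sodium-coupled glucose carrier SGLT1, which takes up sugar in the small intestine and late kidney proximal tubule. Dct encodes dopachrome tautomerase, an enzyme of melanin synthesis in pigment cells. Nt5e encodes CD73, the cell-surface enzyme that turns extracellular AMP into adenosine, an anti-inflammatory signal. In cells outside the nervous system the repressor REST keeps many neural genes, Scn2a among them, switched off.

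Only Scn2a and Lrtm2 were near 0 in most vehicle livers. The other 4 genes had counts in every vehicle sample of the 3 ages: the lowest were 7 counts for Dct, 17 for Slc5a1, 17 for Nt5e and 19 for Lrtm1. Levels between genes compare only per length of exon. On that scale the uninvolved livers had 2.89 ± 1.33 counts per kb and M counts (RPKM) of Lrtm2 and 0.928 ± 0.420 of Scn2a (SD, n = 5), so Lrtm2 was the higher of the pair. Nt5e was the most abundant in any group, at 7.77 ± 1.15 RPKM in 3-week vehicles (SD, n = 7).

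**Figure D1:**
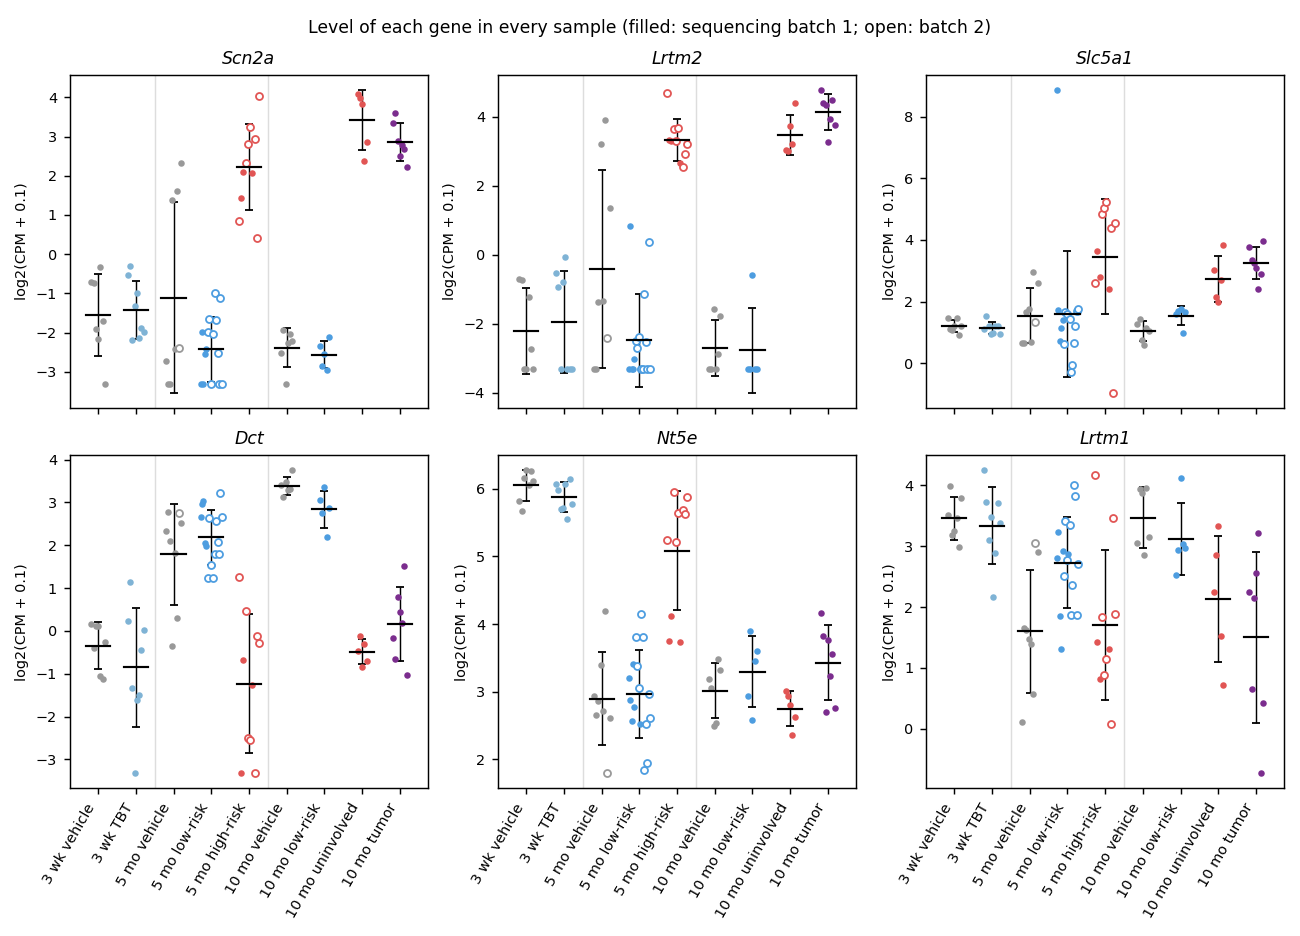
Level of the 6 genes in every sample on a log2(CPM + 0.1) scale, by age and group. Bars are means with SD, filled points are sequencing batch 1 and open points batch 2. Scn2a and Lrtm2 are high in high-risk livers and tumors and in 3 of the 8 vehicles of 5 months, Dct is low in the high-risk groups, and a single low-risk sample holds 470.4 CPM of Slc5a1.

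Totals ran from 2.83 to 45.4 M counts per library, with a median of 18.1 M. 6 libraries stood apart by a total under 5 M, by over 35000 genes detected or by over 10% mitochondrial counts. Among them were 5-month vehicle 9 (2.83 M and 38206 genes), 5-month high-risk 10 (39669 genes) and the vehicle library labelled as a tumor (14.1% mitochondrial). The uninvolved libraries had more counts and more genes detected than every other library of 10 months. They had 34.8 to 44.6 M counts, 24676 to 28715 genes and 4.20 to 5.85% mitochondrial counts. Low-risk libraries of that age had 26.4 to 33.5 M counts, 21663 to 22578 genes and 2.94 to 3.08%. The part of this difference in the levels was not tested. Hepatocyte markers made up at least 69900 CPM in every sample. Intestinal markers reached 470.6 CPM in 5-month low-risk 2, against at most 119.4 CPM in any other library, and 5 of the 7 were higher there than in every other library. Muc2, a goblet cell mucin, had 82.2 CPM there and 15.5 at most elsewhere, while Cdx1 with 3.26 CPM and Lgr5 with 7.08 did not reach their highest levels elsewhere, 4.59 and 21.03. That library enters the results on Slc5a1, which are given with and without it. Uninvolved libraries 3 and 6 differed by little more than sampling noise, with a median chi-square per gene of 0.553 where counting noise alone gives 0.455 and the next closest pair of a group 1.35, and were counted as 1 sample.

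The promoters of the genes that moved together or opposite to each other are shown for orientation. Each window spans 250 bases before to 50 after the RefSeq start nearest to the gene's annotated 5′ end, in GRCm38.p6 coordinates, and is written 5′ to 3′ on the gene's strand. Capitals mark matches, on either strand, to 6 motifs. The core of the M-box of pigment genes is CATGTG. The site of the stress-responsive factor AP-1 is TGANTCA, where N is any base. The TATA box was searched as TATAAA. For the hepatocyte factor HNF1 the half-site GTTAAT was used. The half-site of many nuclear receptors is AGGTCA. For the repressor REST a part of its long site, CAGCACC, was used. Scn2a and Lrtm2, which were high in the same groups, are followed by Dct, which was low there, and by Lrtm1, the relative of Lrtm2.
Scn2a (chr2:65620519-65620818, plus strand): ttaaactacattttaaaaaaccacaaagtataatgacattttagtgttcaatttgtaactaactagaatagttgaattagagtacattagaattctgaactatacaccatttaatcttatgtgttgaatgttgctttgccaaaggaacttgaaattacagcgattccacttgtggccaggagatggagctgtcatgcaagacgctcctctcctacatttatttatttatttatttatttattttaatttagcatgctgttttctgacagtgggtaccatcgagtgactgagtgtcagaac
Lrtm2 (chr6:119330717-119331016, minus strand): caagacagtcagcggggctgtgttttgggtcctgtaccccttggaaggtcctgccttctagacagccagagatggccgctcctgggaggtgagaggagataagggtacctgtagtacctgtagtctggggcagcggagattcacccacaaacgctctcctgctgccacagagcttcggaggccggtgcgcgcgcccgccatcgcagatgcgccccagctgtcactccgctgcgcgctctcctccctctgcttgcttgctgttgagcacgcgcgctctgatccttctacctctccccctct
Dct (chr14:118052197-118052496, minus strand): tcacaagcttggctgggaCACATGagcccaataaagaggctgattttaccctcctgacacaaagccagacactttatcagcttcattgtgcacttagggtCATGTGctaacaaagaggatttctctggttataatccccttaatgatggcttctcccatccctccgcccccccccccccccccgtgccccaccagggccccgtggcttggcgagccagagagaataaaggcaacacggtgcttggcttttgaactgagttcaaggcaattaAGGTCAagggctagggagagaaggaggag
Lrtm1 (chr14:29017958-29018257, plus strand): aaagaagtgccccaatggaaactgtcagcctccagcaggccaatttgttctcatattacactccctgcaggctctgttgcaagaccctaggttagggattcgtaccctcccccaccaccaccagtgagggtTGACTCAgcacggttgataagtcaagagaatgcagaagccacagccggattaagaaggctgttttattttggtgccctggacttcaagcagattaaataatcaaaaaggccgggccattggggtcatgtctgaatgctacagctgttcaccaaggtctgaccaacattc
The windows of Scn2a and Lrtm2 held none of the 6 motifs, which says only that these letters are not in them. Dct held CATGTG at 150 bases before the start and its reverse complement at 232 before, and AGGTCA downstream of the start. Lrtm1 held an AP-1 match at 119 bases before the start. Among all 32817 windows, the M-box core was in 14.2%, the AP-1 site in 7.81%, the TATA box in 13.6%, the HNF1 half-site in 7.1%, the nuclear receptor half-site in 16.3% and the REST part in 7.14%. The windows also differed in base composition: the GC content was 33% for Scn2a and 62.3% for Lrtm2.

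Scn2a (ENSMUSG00000075318, chromosome 2, 65620771 to 65767447, plus strand, GRCm38) separated high-risk from low-risk livers without overlap at both later ages. At 5 months the 10 high-risk samples ran from 1.24 to 16.3 CPM with a median of 4.53, and the 16 low-risk samples from 0 to 0.407 with a median of 0.0811. Every high-risk sample lay above every low-risk sample, in both sequencing batches. High-risk 10, which stood apart by 39669 genes detected, was 1 of the high-risk samples. At 10 months the uninvolved livers had 17.001 (mouse 1), 15.6 (mouse 5), 14.2 (mouse 7), 5.07 (mouse 12) and 7.17 CPM (mice 3 and 6 together), and the low-risk livers 0.0969 (mouse 2), 0.0378 (mouse 4), 0.0713 (mouse 8), 0.0299 (mouse 9) and 0.133 (mouse 10). The latter 5 values stand for 1 to 4 counts each. Tumors ran from 4.59 to 12.1 CPM with a median of 6.76, and 10-month vehicles from 0 to 0.161 with a median of 0.111. These contrasts chose the gene, so their sizes are a description with no test. The fitted log2 fold change was 5.16 (SE 0.69) at 5 months and 6.98 (SE 0.43) at 10 months against low-risk livers, and 5.88 (SE 0.38) for tumors against vehicles, where 45.9% of genes were called. Of the genes measured, 38.9% were called at an adjusted p under 0.05 between high-risk and low-risk livers of 5 months and 52.4% between uninvolved and low-risk livers of 10 months. In 2.45% and 23.2% of genes every sample of the first group was above every sample of the second. In bulk tissue, more cells that make a transcript and more transcript per cell cannot be told apart.

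Lrtm2 (ENSMUSG00000055003, chromosome 6, 119315133 to 119330766, minus strand) followed the same groups. It ran from 5.68 to 25.8 CPM in 5-month high-risk samples with a median of 9.72, and from 0 to 1.69 in low-risk samples with a median of 0.0111. High-risk 1 held the 25.8 CPM and the next sample 12.6. Uninvolved livers had 8.10 (mouse 1), 7.98 (mouse 5), 13.2 (mouse 7), 9.10 (mouse 12) and 20.8 CPM (mice 3 and 6). Low-risk livers of 10 months had 0 counts in 4 of 5 samples, which allows up to 0.114 CPM in the shallowest of them, and 16 counts in mouse 8. Tumors ran from 9.62 to 27.5 CPM with a median of 20.1, the highest group median of this gene. The fitted log2 fold change against low-risk livers was 5.51 (SE 0.85) at 5 months and 6.49 (SE 0.80) in uninvolved livers. The second rose to 11.56 without low-risk 8, where every remaining low-risk sample was at 0. The ratio of pooled counts was 123 (exact 95% interval 75.4 to 215.0, counting error only), from 3061 of 232.2 M counts against 16 of 148.9 M. Of the 3061 counts, 1588 came from mice 3 and 6 together, and all 16 came from low-risk 8. The interval therefore does not cover the spread between samples. For Scn2a the ratio of pooled counts was 152 (84.9 to 305.3), from 2610 counts against 11.

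Vehicle livers of 5 months did not form a single level of Scn2a and Lrtm2. Vehicles 4, 6 and 9 held 2.51, 2.98 and 4.94 CPM of Scn2a, inside the high-risk range, and the other 5 vehicles at most 0.0888. The same 3 libraries held 9.23, 14.8 and 2.47 CPM of Lrtm2, and the others at most 0.293. The values of vehicle 9 are 14 and 7 counts in the library of 2.83 M, which also held more than the other vehicles of genes that are hardly expressed in liver: Scn3a 4.94 CPM against at most 1.08, Cacna2d3 7.42 against at most 0.178, and melanocyte markers 7.77 against at most 0.616. Its Scn2a and Lrtm2 did not stand above such genes, and 2 of 8 vehicles, 4 and 6, are high without it. Like vehicle 9, high-risk 10 had over 35000 genes detected. The high-risk group of 5 months ran up to 2.83 CPM of Cacna2d3 and 2.95 of melanocyte markers, with medians of 0.0733 and 0.518. Dct was 0.685 and 1.13 CPM in vehicles 4 and 6, below the other vehicles, and 5.65 in vehicle 9. With these libraries in the group, the log2 fold change of high-risk livers against vehicles was 1.53 (SE 0.87) for Scn2a and 1.67 (SE 1.058) for Lrtm2 at a background of 15.8% of genes called. Leaving out single vehicles moved it between 1.059 and 2.04 for Scn2a and between 1.18 and 2.59 for Lrtm2. Group and batch were mixed in this contrast: 7 of 8 vehicles were of batch 1 and 7 of 10 high-risk samples of batch 2. Under 7 other settings, among them no batch term and batch 1 only, Scn2a ran from 1.09 to 2.11 and Lrtm2 from 0.871 to 2.01. Neuron markers were 6.53 and 6.78 CPM together in vehicles 4 and 6, near the low end of the group, and 44.5 in vehicle 9, its highest. Cholangiocyte markers were 111.9 and 255.6 CPM in vehicles 4 and 6 and at most 72.02 in the other vehicles. Most of the sum of this list was Spp1 in 10-month vehicles, at a mean of 31.7 CPM. The part of these marker levels in the result was not tested.

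The vehicle library of 10 months labelled as a tumor held 8.17 CPM of Scn2a (94 counts), 13.3 of Lrtm2 (153 counts), 8.08 of Slc5a1 and 0 counts of Dct in 11.51 M. All 4 values lie on the side of the TBT tumors and outside the range of the 6 other vehicles. It is a single library without a replicate.

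**Figure D2:**
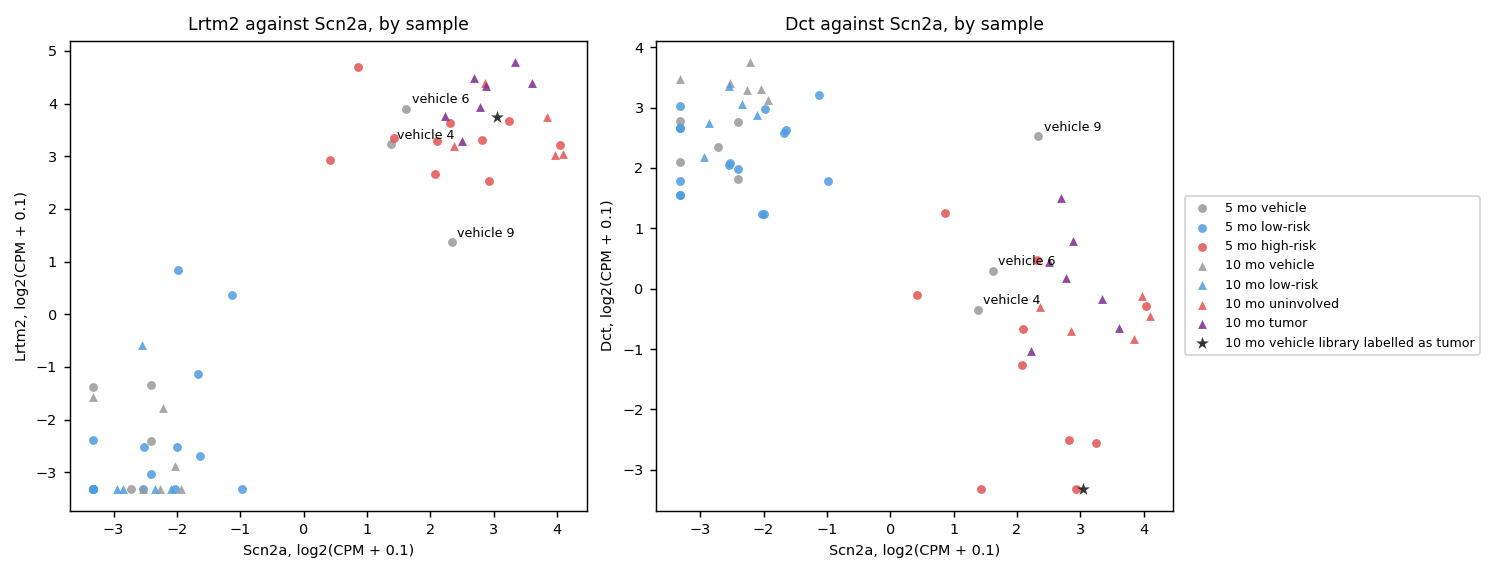
Lrtm2 (left) and Dct (right) against Scn2a in every 5-month and 10-month sample, on log2(CPM + 0.1) axes. Circles are 5 months, triangles 10 months and the star the vehicle library labelled as a tumor. High-risk livers, tumors, the star and 3 vehicles of 5 months lie to the right, and all low-risk samples to the left.

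In 10 of 10 high-risk samples of 5 months, high-risk 10 among them, Scn2a and Lrtm2 were above 1 CPM together. The same held in 5 of 5 uninvolved livers and 7 of 7 tumors. They were so in 0 of 16 low-risk samples of 5 months, 0 of 5 of 10 months, 3 of 8 vehicles of 5 months, vehicle 9 among them, and 0 of the 15 samples of 3 weeks. Over all 72 samples their log2 CPM had a Pearson r of 0.91, a description of shared group differences. Within the high-risk samples the r was -0.24 (Spearman rho -0.08, n = 10, permutation p = 0.495, adjusted p = 0.935 over 30 relations) and -0.53 without the 2 samples farthest from the Scn2a median. Within tumors it was 0.70 (rho 0.68, n = 7, exact permutation p = 0.0706, adjusted p = 0.53), and 0.59 without the 2 farthest. So the pair shared the group pattern, and no relation inside a group passed the correction.

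Of the 30 relations between members within the high-risk samples or the tumors, 0 passed the correction, and 3 had an unadjusted permutation p under 0.05, all in high-risk samples. Scn2a and Slc5a1 had r = 0.79 (rho 0.81, n = 10, permutation p = 0.00374, adjusted p = 0.0993), 0.74 without the 2 samples farthest from the Scn2a median (high-risk 22 and 25) and 0.83 within the 7 samples of batch 2. Dct and Lrtm1 had r = 0.76 (rho 0.73, n = 10, permutation p = 0.00662, adjusted p = 0.0993), 0.76 without the 2 samples farthest from the Dct median (high-risk 4 and 17) and 0.87 within batch 2. The samples with the highest Lrtm1, high-risk 1 and 22, were not left out of this pair. For Scn2a and Lrtm1 r was -0.65 (rho -0.47, n = 10, permutation p = 0.0447, adjusted p = 0.447). High-risk 1 and 22 stood out among these 10 samples: they held the lowest Scn2a (1.71 and 1.24 CPM) and the highest Lrtm1 (18.007 and 10.9 CPM). Their cholangiocyte markers, 75.0 and 33.1 CPM, were the lowest of the group, whose other samples had 181.9 to 448.2.

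Slc5a1 (ENSMUSG00000011034, chromosome 5, 33104219 to 33162870, plus strand) was higher in most high-risk samples and in every tumor than in the vehicles of their age, but its fitted changes at 5 months turned on 1 library. High-risk samples ran from 0.413 to 37.4 CPM with a median of 16.5, and vehicles from 1.48 to 7.65 with a median of 2.72. Low-risk samples ran from 0.712 to 3.28 CPM apart from low-risk 2, which held 470.4 CPM (9242 counts). Without low-risk 2, 9 of 10 high-risk samples lay above all low-risk samples, and high-risk 22 lay below all of them. The fitted log2 fold change of high-risk against low-risk livers was 1.38 (SE 1.08) with that library and 2.49 without it. It was -3.51 within batch 1, which holds that library, and 2.94 within batch 2. Against vehicles it was 4.73 (SE 1.42) with the library, which enters through the batch term, and 1.82 without it. The sign of low-risk against vehicle livers also turned, from 3.35 (SE 1.15, adjusted p = 0.564) to -0.67 (adjusted p = 0.930) by edgeR's quasi-likelihood test.

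At 10 months Slc5a1 was 7.96 (mouse 1), 4.29 (mouse 5), 3.85 (mouse 7), 6.38 (mouse 12) and 14.3 CPM (mice 3 and 6) in uninvolved livers. Low-risk livers had 2.91 (mouse 2), 3.14 (mouse 4), 3.28 (mouse 8), 1.88 (mouse 9) and 3.03 (mouse 10), all below the uninvolved samples. The 7 tumors ran from 5.17 to 15.6 CPM with a median of 9.45, and the 6 vehicles from 1.397 to 2.61 with a median of 2.02. The log2 fold change of uninvolved livers was 1.15 (SE 0.30) against low-risk livers and 1.59 (SE 0.29) against vehicles, for which 57.7% of genes were called, and that of tumors against vehicles was 2.01 (SE 0.22). Intestinal markers summed to 46.8 to 86.6 CPM in uninvolved livers and 57.5 to 114.3 in low-risk livers, with Cdx1 at 0 in every sample of both groups. Fabp2 made up most of the sum in tumors and vehicles, with means of 83.4 and 73.1 CPM. Vil1 was at 0.461 CPM in vehicles and 6.12 in tumors, a log2 fold change of 3.41 (SE 0.54). Lgals4 fell by 0.62 (SE 0.16) in that comparison, where 45.9% of genes were called. Kidney proximal tubule markers were at most 10.0 CPM in the uninvolved livers. Cholangiocyte markers were higher beside Slc5a1: 119.4 to 268.6 CPM in uninvolved livers and 148.0 to 871.0 in tumors, against 36.01 to 53.6 in low-risk livers. Spp1 made up most of the sum, with means of 390.8 CPM in tumors and 31.7 in 10-month vehicles. Krt19, Krt7, Epcam, Sox9 and Cftr had means of at most 12.9 CPM in tumors and were higher there than in vehicles as well. The part of these markers in the result was not tested.

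Dct (ENSMUSG00000022129, chromosome 14, 118012790 to 118052244, minus strand) went the other way: it was lower in high-risk livers and tumors than in vehicle and low-risk livers of their age, without overlap at 10 months. Vehicles of 10 months ran from 8.65 to 13.4 CPM with a median of 10.2. Low-risk livers had 8.20 (mouse 2), 6.62 (mouse 4), 10.1 (mouse 8), 4.45 (mouse 9) and 7.199 CPM (mouse 10). Uninvolved livers had 0.628 (mouse 1), 0.823 (mouse 5), 0.460 (mouse 7), 0.712 (mouse 12) and 0.512 CPM (mice 3 and 6). Tumors ran from 0.389 to 2.74 CPM with a median of 1.03. At 5 months 9 of 10 high-risk samples lay below all 16 low-risk samples: the high-risk group ran from 0 to 2.28 CPM with a median of 0.423, and the low-risk group from 2.26 to 9.17 with a median of 4.07. The log2 fold change of uninvolved livers was -3.80 (SE 0.23) against low-risk livers, and that of 5-month high-risk livers -3.32 (SE 0.50), as descriptions. In 6.74% of genes every uninvolved liver was below every low-risk liver, in 5.38% below every vehicle, and tumors were so for 1.86% (low-risk) and 1.58% (vehicle), with 36.7% of genes called between tumors and low-risk livers.

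Melanocyte markers gave no parallel to Dct. Tyr, Tyrp1, Pmel, Mlana and Slc45a2, which mark pigment cells, summed to 0.268 to 0.584 CPM in 10-month vehicles and 0.259 to 0.698 in uninvolved livers, and Tyrp1 was at 0 in every 10-month sample. Of 11 other genes of pigment synthesis and pigment cell development, 3 passed the filter at 5 months. The receptor gene Ednrb rose in high-risk against low-risk livers by 0.61 (SE 0.15, adjusted p = 0.00135), the receptor gene Kit fell by 0.92 (SE 0.16, adjusted p = 2.89e-05), and the regulator Mitf had a log2 fold change of 0.18 (SE 0.17, adjusted p = 0.430) by edgeR's quasi-likelihood test.

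Nt5e (ENSMUSG00000032420, chromosome 9, 88327197 to 88372092, plus strand) was highest at 3 weeks, and at 5 months was higher in high-risk than in other livers, with values that differed by batch; at 10 months it was not. It ran from 50.9 to 77.0 CPM in 3-week vehicles with a median of 68.8 and from 46.8 to 70.3 in 3-week TBT livers with a median of 58.9. In 5-month vehicles it ran from 3.38 to 18.1 with a median of 6.83, and in low-risk livers from 3.49 to 17.7 with a median of 7.51. High-risk samples ran from 13.3 to 62.0 CPM with a median of 43.5. That range was made of batches that did not overlap: 3 samples of batch 1 had 13.3 to 17.2 CPM, and 7 of batch 2 had 36.9 to 62.0. The log2 fold change of high-risk against low-risk livers was 1.74 (SE 0.26) over both batches, 0.67 within batch 1 and 2.12 within batch 2. In low-risk livers the batches overlapped, at 7.53 ± 1.94 (SD, n = 6) and 9.07 ± 4.77 CPM (SD, n = 10).

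At 10 months Nt5e was 7.98 (mouse 1), 7.58 (mouse 5), 6.90 (mouse 7), 5.04 (mouse 12) and 6.09 CPM (mice 3 and 6) in uninvolved livers. Low-risk livers had 7.56 (mouse 2), 14.8 (mouse 4), 5.92 (mouse 8), 10.8 (mouse 9) and 12.1 CPM (mouse 10), and the groups overlapped. Every uninvolved sample lay below the mean of the low-risk livers, 10.2 ± 3.56 CPM (SD, n = 5), and the log2 fold change was -0.85 (SE 0.21). The 10-month direction was thus opposite to that of 5 months, and the difference between the ages was not tested. All 10-month libraries were of batch 1, while 7 of 10 high-risk libraries of 5 months were of batch 2. Age and batch are therefore mixed in it. Within batch 1 the 5-month value was 0.67.

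**Figure D3:**
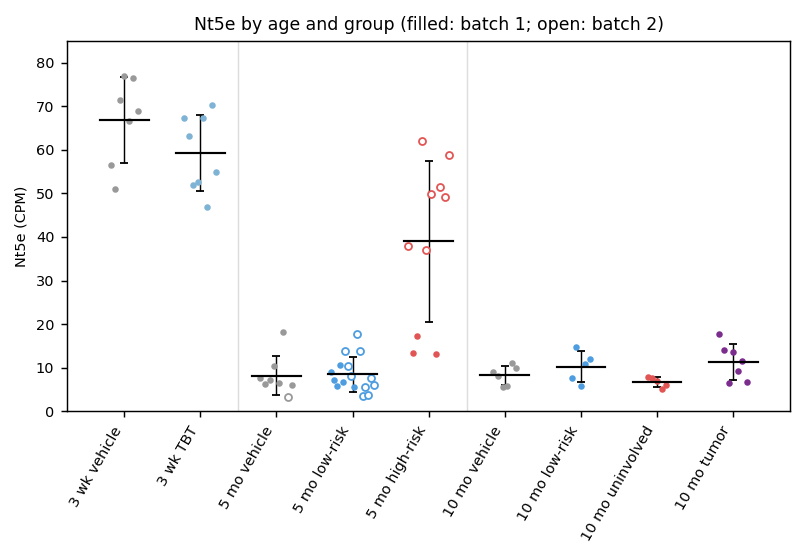
Nt5e in every sample in CPM on a linear axis, by age and group, with means and SD. Filled points are batch 1 and open points batch 2. The 3-week samples sit between 46.8 and 77.0 CPM, the 7 high-risk samples of batch 2 between 36.9 and 62.0, and the 3 of batch 1 between 13.3 and 17.2.

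Lrtm1 (ENSMUSG00000045776, chromosome 14, 29018208 to 29033645, plus strand), unlike Lrtm2, was expressed in vehicle liver of all ages. It was lower in the high-risk groups than in low-risk livers, and at 10 months also than in vehicles. Vehicles of 10 months ran from 7.17 to 15.4 CPM with a median of 11.7. Low-risk livers had 5.68 (mouse 2), 7.61 (mouse 4), 17.2 (mouse 8), 8.15 (mouse 9) and 7.73 (mouse 10), and uninvolved livers 4.67 (mouse 1), 7.13 (mouse 5), 9.92 (mouse 7), 2.77 (mouse 12) and 1.55 CPM (mice 3 and 6). Tumors ran from 0.502 to 9.18 CPM with a median of 4.35. Ranges overlapped in all of these pairs. The log2 fold change of uninvolved livers was -1.12 (SE 0.43) against low-risk livers and -1.51 (SE 0.42) against vehicles. At 5 months 8 of 10 high-risk samples had 0.959 to 3.605 CPM and high-risk 1 and 22 had 18.007 and 10.9. Vehicles of that age ran from 0.975 to 8.17 CPM and low-risk livers from 2.37 to 16.04. The log2 fold change of these high-risk livers was -1.04 (SE 0.40) against low-risk livers. Against vehicles it was -0.33 (SE 0.51), with means of 4.74 and 3.65 CPM, and 0.18 without the batch term.

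In the order of the group medians, neighbouring groups overlapped for all 6 genes, with 2 exceptions. The lowest 5-month high-risk sample of Scn2a lay above the highest 3-week TBT sample, and the lowest uninvolved liver of Slc5a1 above the highest low-risk liver of 10 months. The order began with the uninvolved livers for Scn2a, tumors for Lrtm2, 5-month high-risk livers for Slc5a1, 3-week vehicles for Nt5e, and 10-month vehicles for Dct and Lrtm1.

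The next 5 comparisons are not those of high-risk livers that chose the genes. The choice still drew on vehicle levels near 0 and on earlier results for all 6 genes, so the p-values of the comparisons with vehicles are not independent of it. Maternal TBT made no called difference at 3 weeks: Dct, Slc5a1, Nt5e and Lrtm1 were tested, with log2 fold changes of -0.05 (SE 0.55), -0.04 (SE 0.15), -0.15 (SE 0.12) and -0.01 (SE 0.25), each at an adjusted p of 0.999 by edgeR's quasi-likelihood test, where 0% of genes were called. At that age 474 genes (3.37%) had an unadjusted p under 0.05 and DESeq2 called 2 genes. Scn2a and Lrtm2 did not pass the filter on low counts: Scn2a had 0.315 ± 0.256 CPM in vehicles (SD, n = 7) and 0.321 ± 0.226 in TBT livers (SD, n = 8), and Lrtm2 0.198 ± 0.239 and 0.294 ± 0.339.

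Low-risk livers did not differ from vehicles by a called change in any of the 6 genes at either age, and 0% of genes were called at 5 and at 10 months. Scn2a had the log2 fold change -3.63 (SE 0.90, adjusted p = 0.362) and Lrtm2 -3.84 (SE 1.03, adjusted p = 0.394) at 5 months by edgeR's quasi-likelihood test, with vehicles 4, 6 and 9 as the high samples. DESeq2 called Scn2a (adjusted p = 0.00329), and edgeR without the batch term called Lrtm2 (adjusted p = 0.0436). At 10 months Dct had -0.59 (SE 0.19, adjusted p = 0.9999), with 4 of 5 low-risk livers below all vehicles, and Slc5a1 0.44 (SE 0.30, adjusted p = 0.9999), with 4 of 5 above all vehicles. Unadjusted p were under 0.05 for 934 genes (6.32%) at 5 months and 688 (4.21%) at 10 months, and DESeq2 called 52 and 1.

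Vehicle livers changed 3 of the 5 genes tested between 3 weeks and 5 months, where 24.2% of genes were called. Dct rose by 2.54 on the log2 scale (SE 0.42, adjusted p = 1.05e-04), from 0.733 ± 0.284 (SD, n = 7) to 3.83 ± 2.26 CPM in the batch 1 vehicles (SD, n = 7). Nt5e fell by 2.74 (SE 0.21, adjusted p = 3.86e-09), and all 7 vehicles of 5 months lay below all of 3 weeks. Lrtm1 fell by 1.93 (SE 0.31, adjusted p = 9.15e-05), again without overlap, by edgeR's quasi-likelihood test. In 6.04% of genes all older samples were below all younger ones. Scn2a had a log2 fold change of 2.17 (SE 0.99, adjusted p = 0.121) and Slc5a1 0.72 (SE 0.31, adjusted p = 0.0968), the latter between 0.38 and 0.86 when single samples were left out, with adjusted p from 0.0469 to 0.362.

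From 5 to 10 months, with 14.1% of genes called, Dct rose further in vehicles by 1.41 (SE 0.36, adjusted p = 0.0143), to 10.5 ± 1.62 CPM (SD, n = 6), with all older samples above all younger ones, as for 5.18% of genes. Scn2a fell by 3.64 (SE 1.12, adjusted p = 0.0347), with vehicles 4, 6 and 9 of 5 months as the high samples. The call was lost without the filter on low counts (adjusted p = 0.0674), and in 12 of 13 fits that left out a sample the gene did not pass that filter. Nt5e had -0.17 (SE 0.21, adjusted p = 0.608) and Slc5a1 -0.77 (SE 0.32, adjusted p = 0.105) by edgeR's quasi-likelihood test. Lrtm1, whose change here was known when it was chosen, went from 3.01 ± 2.10 (SD, n = 7) to 11.6 ± 3.89 CPM (SD, n = 6).

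**Figure D4:**
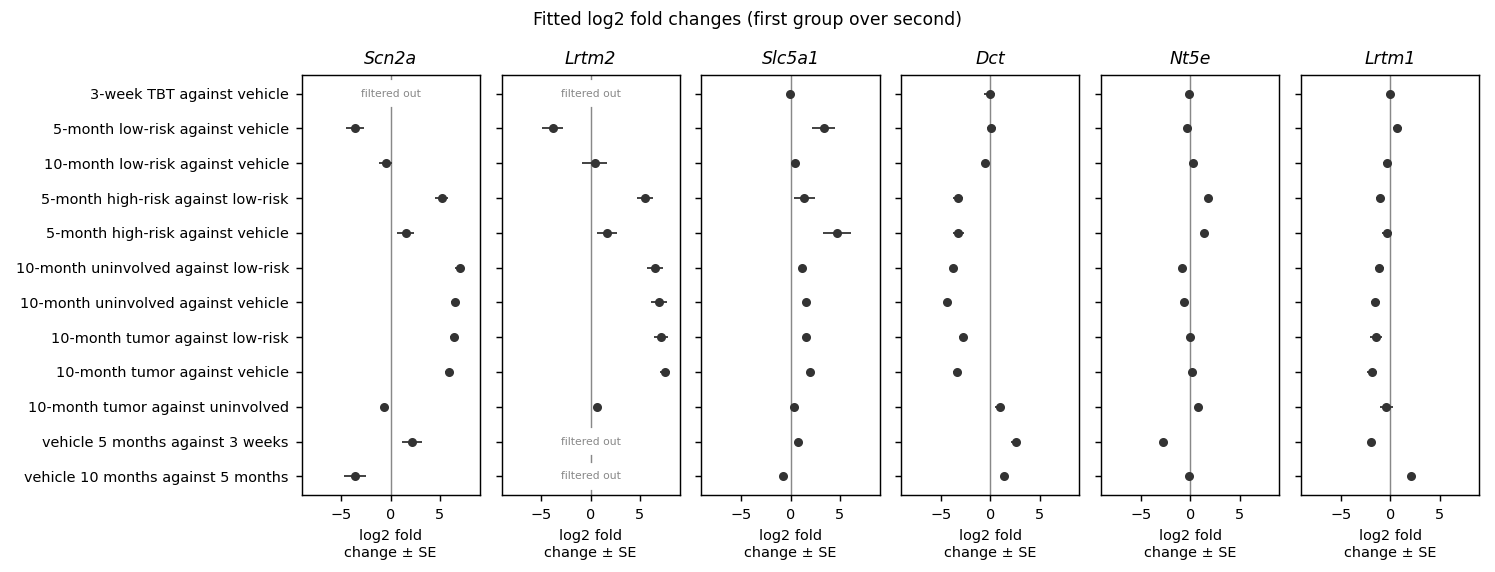
Fitted log2 fold changes of the 6 genes with standard errors in 12 comparisons, first group over second. The 3 upper comparisons lie near 0 except for Scn2a and Lrtm2 at 5 months and for Slc5a1 at 5 months, whose value rests on low-risk 2. Comparisons of high-risk livers or tumors with vehicle or low-risk livers were used to choose the genes and share their reference samples.

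Tumors were compared with uninvolved liver, whose level had entered the choice of genes, so these p-values are not independent of it either. Of the 6 genes, 1 was called, where 18.1% of all genes were: Nt5e was higher in tumors by 0.74 (SE 0.23, adjusted p = 0.0401 by edgeR's quasi-likelihood test), at 11.3 ± 4.17 (SD, n = 7) against 6.72 ± 1.18 CPM (SD, n = 5). The call was fragile. It was lost when mouse was a block, over 6 pairs (0.68, adjusted p = 0.0635) and over the 4 pairs without mice 3 and 6 (0.47, adjusted p = 0.197), and in 9 of 12 fits that left out a sample, with values from 0.60 to 0.86. Lrtm2 had 0.61 (SE 0.29, adjusted p = 0.154), Dct 0.92 (SE 0.42, adjusted p = 0.140), Slc5a1 0.40 (SE 0.32, adjusted p = 0.385), Scn2a -0.64 (SE 0.29, adjusted p = 0.134) and Lrtm1 -0.39 (SE 0.63, adjusted p = 0.683).

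Within mice, the uninvolved libraries 3 and 6 mattered. In the 4 other mice with both tissues, Scn2a and Lrtm1 were lower in the tumor in 4 of 4 and Lrtm2 and Slc5a1 higher in 4 of 4, although Lrtm1 in mouse 1 differed by as little as 4.665 against 4.66 CPM. In mouse 1 Scn2a went from 17.001 to 10.002 CPM and Lrtm2 from 8.10 to 27.5. With mouse as a block over these 4 pairs, the log2 fold changes were -0.75 for Scn2a, 0.997 for Lrtm2 and 0.93 for Slc5a1. Over all 6 pairs the values were -0.47, 0.45 and 0.38. They are a description with no test, since the uninvolved levels of these 3 genes entered their choice.

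**Figure D5:**
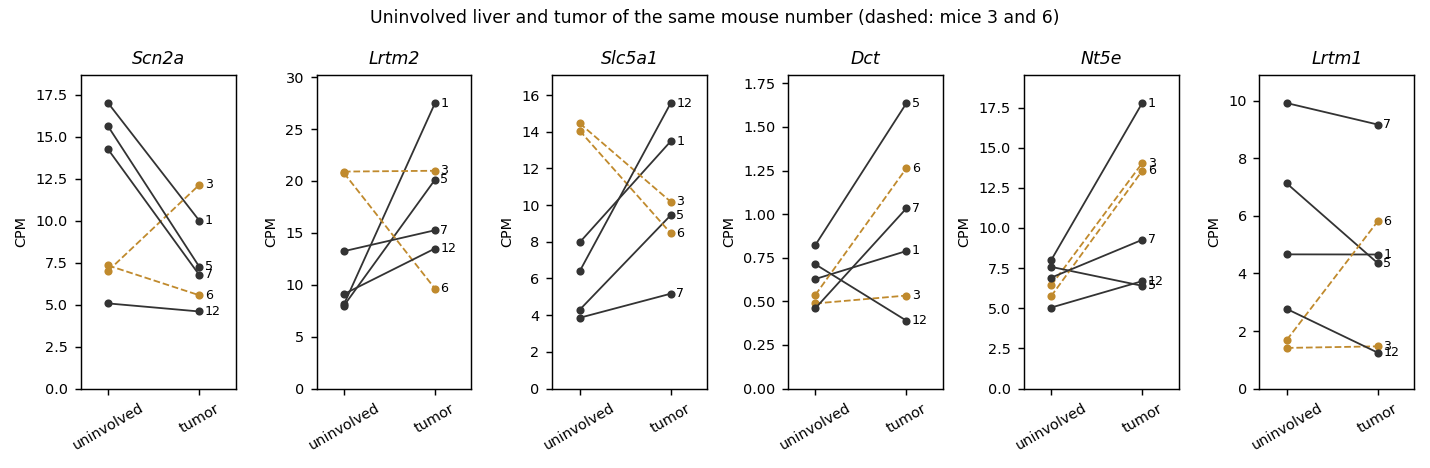
CPM of the 6 genes in uninvolved liver and in the tumor with the same mouse number, 1 line per mouse, with axes from 0. Dashed lines are mice 3 and 6, whose uninvolved libraries were nearly the same. In the 4 other mice Scn2a and Lrtm1 go down, the latter hardly in mouse 1, and Lrtm2 and Slc5a1 go up.

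Of the other voltage-gated sodium channel genes, Scn8a, a neural pore subunit, rose in high-risk against low-risk livers of 5 months by 1.63 on the log2 scale (SE 0.54, adjusted p = 0.0150), in a comparison where 20.3% of genes rose. Scn3a, the gene next to Scn2a, rose there by 1.58 (SE 0.47, adjusted p = 0.00741). Its high-risk samples, with high-risk 10 and its 39669 detected genes among them, ran from 0.124 to 3.725 CPM with a median of 1.445. Its low-risk samples ran from 0 to 0.996 CPM with a median of 0.386. Both rose in uninvolved against low-risk livers of 10 months as well, Scn8a by 1.41 (SE 0.33, adjusted p = 0.00200) and Scn3a by 2.55 (SE 0.55, adjusted p = 0.00112), by edgeR's quasi-likelihood test. The greater depth of the uninvolved libraries enters that comparison, and its part was not tested. Scn4b, an accessory subunit, did not pass the filter in these comparisons. In tumors against uninvolved livers Scn3a fell by 1.48 (SE 0.42, adjusted p = 0.0276), while Scn8a had 1.62 (SE 0.65, adjusted p = 0.0963).

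Beside the channel genes, the summed neuron markers of high-risk and low-risk livers overlapped at both ages. The median sums of cholangiocyte, stellate, T and B, and Schwann cell markers were higher in high-risk livers, and that of Kupffer cell markers lower. Tumors had 9.74 to 19.7 CPM of neuron markers and 10-month vehicles 7.96 to 11.1. Syt1 alone had means of 11.8 and 7.42 CPM in these 2 groups. The 10 markers summed to 5.98 to 18.8 CPM in 5-month high-risk samples and 7.62 to 17.2 in low-risk samples, and Snap25 was at 0 in every uninvolved, low-risk and vehicle liver of 10 months. Of the 10, 2 passed the filter at 5 months, where 0 rose and 1 fell, beside 20.3% and 18.5% of all genes. At 10 months 3 passed, and 0 were called in uninvolved against low-risk livers, where 52.4% of all genes were. Cholangiocyte markers had a median sum of 330.9 CPM in high-risk and 43.7 in low-risk livers of 5 months, and stellate cell markers 818.8 (414.4 to 911.5) and 389.6 (242.7 to 497.2). Of the 6 stellate cell markers 3 rose and 1 fell at 5 months and at 10 months, where the sums were 460.2 to 678.1 CPM in uninvolved and 309.2 to 442.2 in low-risk livers. The part of these markers in the levels of Scn2a and Lrtm2 was not tested. Rest, which encodes the repressor, had 51.4 CPM in high-risk and 41.2 in low-risk livers of 5 months, with a log2 fold change of 0.01 (SE 0.08, adjusted p = 0.946 by edgeR's quasi-likelihood test). Of the 9 tested genes of REST and its corepressors, 0 were called at 5 months, where 38.9% of all genes were. At 10 months 2 rose and 3 fell in uninvolved against low-risk livers, beside 27.7% and 24.7% of all genes.

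Of 20 other neural leucine-rich repeat genes, 7 passed the filter. In high-risk against low-risk livers of 5 months, where 20.3% of all genes rose, 1 rose, Flrt2, a guidance and adhesion molecule, by 0.82 (SE 0.27, adjusted p = 0.0166). In uninvolved against low-risk livers 5 of 7 rose, among them Lrrtm2, a synaptic adhesion protein, by 2.16 (SE 0.49, adjusted p = 0.00153) and Flrt1 by 0.79 (SE 0.23, adjusted p = 0.00825), where 27.7% of all genes rose. In tumors against low-risk livers Lrrtm2 had a log2 fold change of 0.48 (SE 0.29), Flrt1 0.13 (SE 0.25) and Flrt2 0.84 (SE 0.21). The uninvolved libraries were deeper with more genes detected, and the part of this in the rises was not tested. The Lrtm2 gene lies inside Cacna2d4, and Lrtm1 inside Cacna2d3, each on the opposite strand without a shared exon base. Cacna2d4, a calcium channel subunit gene, rose with Lrtm2, by 2.33 (adjusted p = 0.00514) at 5 months and 2.82 (adjusted p = 1.79e-04) at 10 months by edgeR's quasi-likelihood test, at 1.27 and 1.03 CPM in the high-risk groups. Its 5-month high-risk samples ran from 0.413 to 4.75 CPM with a median of 0.760. High-risk 10, with 39669 genes detected, is 1 of them, and its part in the rise was not tested. Whether the strand was used in counting is not given in the sources used here, so reads of such overlapping genes may not be told apart. Cacna2d3 stayed at a mean of at most 0.342 CPM in these groups and did not pass the filter.

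Other sugar transporter genes changed in both directions. Of 15 genes 7 were tested, and in high-risk against low-risk livers of 5 months 4 fell and 1 rose, where 18.5% of genes fell and 20.3% rose. Slc2a2, the main glucose transporter of hepatocytes, fell by 0.90 (SE 0.19, adjusted p = 2.91e-04), from 442.4 to 296.9 CPM, and Slc2a1, the widely expressed glucose transporter, rose by 0.51 (SE 0.12, adjusted p = 0.00121). In uninvolved against low-risk livers, Slc2a2 fell by 0.76 (SE 0.13, adjusted p = 1.97e-04) and Slc2a1 rose by 0.73 (SE 0.15, adjusted p = 5.95e-04), by edgeR's quasi-likelihood test.

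Of 18 other genes that handle extracellular nucleotides and adenosine, 14 were tested at 5 months: 5 rose and 5 fell in high-risk against low-risk livers, beside 20.3% and 18.5% of all genes. Entpd5, a nucleoside diphosphatase, rose by 0.63 (SE 0.14, adjusted p = 5.25e-04), and Slc29a1, which carries adenosine across the membrane, fell by 1.16 (SE 0.13, adjusted p = 9.42e-08). At 10 months 4 rose and 5 fell of 15, beside 27.7% and 24.7% of all genes, and Slc29a1 fell by 0.79 (SE 0.12, adjusted p = 5.13e-05) and Entpd5 had a log2 fold change of -0.22 (SE 0.12, adjusted p = 0.133) by edgeR's quasi-likelihood test.

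The genes most like each member over the 72 samples, by Pearson r of log2 CPM among 12373 genes, are a description of the shared groups and ages. For Scn2a they were Svep1 (0.92), Myof (0.90) and Gpnmb (0.90), and for Lrtm2 Shc2 (0.93), Cx3cr1 (0.91) and Wfdc15b (0.89). For Dct they were Cadm4 (0.89), Hsd3b5 (0.89) and Susd4 (0.87), and for Nt5e Slc22a27 (0.91), Cyp39a1 (0.89) and Slc22a29 (0.88). Lrtm1 had lower values, with Slc10a1 (0.79), Esrrg (0.74) and Tbx3os1 (0.74). For Slc5a1 they were Epcam (0.85), Spint1 (0.84) and Cldn7 (0.81), all epithelial genes, and without low-risk 2 these were 0.82, 0.81 and 0.75. Without that library the 3 nearest were themselves partly other genes: Tspan8 (0.82), Epcam (0.82) and Lamc3 (0.81) for Slc5a1, Svep1 (0.92), Tinag (0.91) and Inava (0.90) for Scn2a, and Slc10a1 (0.79), Esrrg (0.75) and Hpgd (0.74) for Lrtm1. For Lrtm2, Dct and Nt5e they were the same genes.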

How the data were processed

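Bulk RNA-seq of mouse liver was analysed from 1 table of whole-number counts deposited by the authors (55536 genes, 75 libraries), whose name says that featureCounts counts were adjusted with ComBat-seq, a batch correction of counts. Per the labels' protocols, RNA was treated with DNase and libraries were stranded total RNA. Trim Galore, HISAT2, featureCounts and mm10 are named in the submitters' processing notes. Versions, annotation, strand setting and correction settings are not given in the sources used here. A batch-corrected count can differ from the number of reads.

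Levels are CPM, and for comparing genes RPKM over GENCODE M21 exons (GRCm38; 55450 IDs matched). Differences were fitted in R 4.3.3 with edgeR 4.0.16 (TMM, filterByExpr, robust quasi-likelihood, Benjamini-Hochberg, threshold 0.05), with sequencing batch as a term at 5 months. Groups of an age shared a fit, tumors entered fits of 2 groups, and vehicle ages were compared within batch 1. DESeq2 1.42.0, RLE factors, no filter, other fits, single samples left out and replicate blocks were the alternatives. The fitting code was tested on simulated data. Correlations used log2(CPM + 0.1) and 100000 resamples, or exact permutations with 7 samples, 2-sided. The 2 farthest samples are those farthest from the median of the first-named gene of a pair.

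Libraries of 3-week vehicle mouse 3 were summed, as were uninvolved 3 and 6 (median chi-square 0.553 over 14207 genes, against 0.455 from counting noise alone and 1.35 for the next lowest pair of a group). Samples compared numbered 72. Tumor and uninvolved libraries with the same mouse number in their titles were read as 1 mouse; deviations from group means correlated between -0.14 and 0.59 over 6 pairs.

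The 6 genes and all gene lists were chosen with earlier results of these data known. Contrasts that chose the genes are described without p-values. Named were all 6 genes, the 3 most like each by Pearson r (mean of at least 1 CPM), their neighbours, and up to 4 genes per list by mean CPM. Of the sodium channel list, the counts and part of the named values are not reported here. Promoters are from RefSeq (GRCm38.p6).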

Additional observations from a re-analysis of the deposited data

Results flagged for a closer look

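Of 48 sets of a gene in a group of 4 to 10 samples, 5 held a sample far from the others by Dixon's test, which chance gives in about 1 of 20 groups. Lrtm2 was 25.8 CPM in 5-month high-risk 1. Lrtm2 was 0.571 CPM and Lrtm1 17.2 CPM in the same library, 10-month low-risk 8. Slc5a1 was 2.82 CPM in 3-week TBT 2 and 1.88 CPM in 10-month low-risk 9. 

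The Nt5e log2 fold change against low-risk livers was 1.74 in 5-month high-risk livers and -0.85 in uninvolved livers of 10 months, with every sample on the side of its sign relative to the low-risk mean. The difference between the ages was not tested and is mixed with batch. All 10-month libraries were of batch 1, in which the 5-month value was 0.67.

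The vehicle library labelled as a tumor, which entered no comparison, held 8.17 CPM of Scn2a, 13.3 CPM of Lrtm2 and 8.08 CPM of Slc5a1, each above the highest of the 6 vehicles of that age.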

How the results depend on the processing

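Of 1035 values of the 6 genes under other settings (68 results), 981 counted as kept and 19 changed sign. In tested comparisons, kept means the same direction and side of the threshold. In comparisons described without a test, it means a shift smaller than the SD of log2(CPM + 0.1) within groups. A value kept by size can still change its sign or its call. Of 75 values for correlations, 62 lay within 1 standard error of the main r on Fisher's z scale, some with the other sign. Among the 75, 12 changed sign. Lrtm2 in 10-month low-risk against vehicle livers (0.42) became -3.70 when the vehicle tumor library was counted as a vehicle, and ran between -4.66 (without low-risk 8) and 1.23 (without vehicle 4) when single samples were left out. Slc5a1 in 5-month high-risk against low-risk livers (1.38) became -1.10 without the batch term and -3.51 within batch 1, and Lrtm1 in high-risk against vehicle livers (-0.33) became 0.18 without the batch term. Nt5e in tumors against low-risk livers (-0.05) became 0.11 without low-risk 4 and changed sign in 3 other fits without 1 sample. Nt5e in 5-month low-risk against vehicle livers (-0.33) became 0.013 without the batch term and 0.22 with a replicate block by the number in the titles. Lrtm1 at 3 weeks became 0.011 with the libraries of vehicle mouse 3 kept apart, and without TBT replicate 4 Dct, Slc5a1 and Lrtm1 became 0.15, 0.013 and 0.0087. Dct in 5-month low-risk against vehicle livers became -0.12 without vehicle 4 and -0.057 without vehicle 6, Slc5a1 there ran from -0.67 without low-risk 2 to 3.89 without vehicle 8, and Nt5e in vehicles of 10 against 5 months from -0.27 to 0.068 (without vehicle 6 of 5 months). Of the 12 sign changes of correlations, 4 were in high-risk samples and 8 in tumors, and 9 came from leaving out the 2 farthest samples: Lrtm2 went from 0.51 to -0.16 with Dct and from 0.60 to -0.31 with Lrtm1 in high-risk samples, and Scn2a with Dct from -0.14 to 0.73 in tumors. The causes were not tested.

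Numbers of called genes over the whole table moved as follows. Without the filter they were 3 at 3 weeks, 1211 (from 2341) in high-risk against vehicle livers of 5 months, 2172 (from 3616) in vehicles of 5 months against 3 weeks and 1128 (from 2107) in vehicles of 10 against 5 months. DESeq2 gave 2 at 3 weeks, 52 and 1 in low-risk against vehicle livers of 5 and 10 months, and 3438 in vehicles of 10 against 5 months. Without the technically deviating libraries they were 1 in 5-month low-risk against vehicle livers, and 5757 and 3700 for the vehicle ages. Without the batch term 20 were called in 5-month low-risk against vehicle livers. High-risk against vehicle livers gave 1338 in a fit of the 2 groups and 0 within batch 1, and high-risk against low-risk livers 773 (from 5745) within batch 1. When the vehicle tumor library was counted as a vehicle they were 6019 (from 9427) for uninvolved livers and 4206 (from 7016) for tumors. Tumor against uninvolved liver gave 5346 (from 2961) with all groups in 1 fit, and with mouse as a replicate block 1920 over 6 pairs and 3037 over 4. Leaving out single samples gave 1373 to 4264 (without vehicles 8 and 9) for high-risk against vehicle livers, 0 to 3 for 5-month low-risk against vehicle livers, 1580 (without uninvolved 1) to 3602 (without uninvolved 12), or 3948 without the sum of uninvolved 3 and 6, for tumor against uninvolved liver, 3064 to 5790 (without 5-month vehicle 9) for vehicles of 5 months against 3 weeks and 1319 (without 10-month vehicle 2) to 3448 (without 5-month vehicle 9) for 10 against 5 months.

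Replicate numbers did not pair the samples at 3 weeks (correlations of deviations -0.165 to 0.212 over 7 pairs), in low-risk and vehicle livers of 5 months (-0.257 to 0.369 over 5 pairs) or of 10 months (-0.013 over 2 pairs), and 0 genes were called with the block. Depth limits Scn2a and Lrtm2 in low-risk and vehicle livers, where most values rest on a few counts.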

Other observations

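Wnt5a encodes a secreted signalling protein, and its gene is the nearest non-overlapping protein-coding gene at lower coordinates than Lrtm1, 490760 bases away. It rose in high-risk against low-risk livers of 5 months by 1.70 (SE 0.33, adjusted p = 8.68e-05) and in uninvolved against low-risk livers by 1.37 (SE 0.19, adjusted p = 1.90e-05) by edgeR's quasi-likelihood test. The log2 fold changes of Lrtm1 itself were -1.04 and -1.12. Of 11 tested neighbours of the 6 genes, 7 rose and 3 fell at 5 months, beside 20.3% and 18.5% of all genes. The neighbours looked at ranged from overlapping genes to a gene 934663 bases away.

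Cholangiocyte markers rose beside Slc5a1: 4 of 6 were called higher in high-risk against low-risk livers of 5 months, with a median log2 fold change of 1.72, and 6 of 6 in uninvolved against low-risk livers, with a median of 2.12, where 20.3% and 27.7% of all genes were called higher. Their part in the values of Slc5a1 was not tested.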
